A study of Mus musculus with 14 samples.

Results

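The genes described here are 10 genes typical of blood vessel endothelium, the cells that line vessels, measured by RNA-seq in mouse intervertebral discs (IVDs). They were chosen by name, as *Pecam1*, *Cdh5*, *Kdr*, *Tek*, *Tie1*, *Emcn*, *Eng*, *Vwf*, *Vcam1* and *Icam1*, and are 10 of the 55487 genes in the deposited table. All 10 were among the 16915 genes that passed the filter on low counts. The study compared 2 mouse models of type 2 diabetes, each with its own controls, in 14 male mice with 1 library each. The db/db mice (n = 3) lack a working leptin receptor, and the db/+ mice (n = 3) were heterozygous littermates, both 3 months old. The STZ-HFD mice (n = 4) were C57BL/6J mice that entered at 12 weeks of age and ate a high-fat diet for a lead-in of 4 to 6 weeks. The labels and the study's methods give different shares of fat for this diet, so none is printed here. They then received a single injection of streptozotocin (STZ) at 100 mg/kg, which damages the insulin-producing cells of the pancreas, and stayed on the diet for 12 more weeks. The Con+Veh mice (n = 4), labelled wild type, were C57BL/6J mice on standard chow that received the injection vehicle alone. They also entered at 12 weeks of age and were kept for 12 weeks after the injection. Each library came from 5 pooled tail discs of 1 mouse, so annulus, nucleus, endplate and any adherent tissue were measured together, and fewer cells of a type and less RNA per cell cannot be told apart.

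The healthy disc is largely avascular, and vessels are mostly found in the outer annulus and at the endplates. Endothelial cells hold to each other through PECAM1 and VE-cadherin (*Cdh5*), read growth signals through the VEGF receptor KDR and the TIE receptors, and store von Willebrand factor (*Vwf*) for clotting. VCAM1 and ICAM1 are adhesion receptors that capture leukocytes and are known to be induced by inflammatory cytokines on many cell types, disc cells included. Angiopoietin-1 (*Angpt1*) is the ligand that activates TEK (also called TIE2) and keeps vessels quiescent, while angiopoietin-2 modulates that signal and TIE1 is a co-receptor without a well-established ligand of its own.

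*Tek* rose in db/db IVDs and was the only one of the 10 genes called in that model, where a call needed a log2 fold change of 1 or more in either direction beside an adjusted p below 0.05. This was 1 of 10 genes, while 1.66% of all genes tested were called in the same comparison. In db/db 3 of the 10 had an unadjusted p under 0.05, which 21.1% of all genes had. None of the 10 was called in STZ-HFD IVDs, where the share over all genes was 2.61%, and 3 of the 10 had an unadjusted p under 0.05, which 17.9% of all genes had. The median log2 fold change of the 10 genes was 0.49 in db/db, beside -0.04 over all genes tested, and 0.0020 in STZ-HFD, beside -0.04. The difference of the 2 contrasts was called for *Tek* and *Emcn*, 2 of 10 genes beside 1.77% of all genes. With edgeR's quasi-likelihood test, none of the 10 was called in db/db or in the difference, and over all genes that test called 0 in db/db, with 1891 at an unadjusted p under 0.05.

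The promoter windows of *Tek* and *Emcn* are shown because they are the genes whose values the comparisons turn on. RefSeq windows of 300 bases on GRCm38.p6 were found for 6 of the 10 genes, and each runs from 250 bases before the RefSeq start of the gene to 50 after it. RefSeq starts can differ from the GENCODE starts behind the gene positions given here, as they do for *Emcn*. *Tek* lies on the plus strand of chr4, with the window at chr4:94739039-94739338, and *Emcn* on the plus strand of chr3, at chr3:137340828-137341127. Capitals mark GGAA on either strand (TTCC on the strand shown), the core that ETS transcription factors, a family that includes known endothelial regulators, bind.
Tek: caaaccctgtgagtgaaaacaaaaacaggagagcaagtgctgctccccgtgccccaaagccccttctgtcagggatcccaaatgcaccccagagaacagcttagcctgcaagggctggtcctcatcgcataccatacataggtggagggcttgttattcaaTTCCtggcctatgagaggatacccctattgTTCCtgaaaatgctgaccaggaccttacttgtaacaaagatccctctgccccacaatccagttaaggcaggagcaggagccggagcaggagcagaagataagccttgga
Emcn: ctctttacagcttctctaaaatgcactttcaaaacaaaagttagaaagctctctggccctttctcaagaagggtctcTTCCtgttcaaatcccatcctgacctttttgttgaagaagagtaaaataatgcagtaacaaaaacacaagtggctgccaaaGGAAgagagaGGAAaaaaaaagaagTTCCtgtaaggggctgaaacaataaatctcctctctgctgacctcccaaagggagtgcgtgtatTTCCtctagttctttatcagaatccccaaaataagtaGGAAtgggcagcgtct
The *Tek* window held 2 such cores and the *Emcn* window 6, while *Tie1* held 9, *Icam1* 7, *Kdr* 5 and *Eng* 4. A core was present in 96% of all 32851 windows, with a median of 3, so its presence does not set these genes apart. The letters GATA were in the windows of *Tek* (2), *Emcn* (1) and *Kdr* (1), and in 57.9% of all windows. TATAAA was found in the *Icam1* window alone among the 6, and in 13.6% of all windows. The AP-1 letters TGANTCA were in none of the 6 and in 7.81% of all windows. The *Emcn* window was 41% G or C and the *Tek* window 52%, beside 60.3% to 64.7% in the other 4. Such matches describe the letters only.

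Levels were first set side by side per kilobase of exon, since the summed exon length of the genes ran from 4048 bp in *Eng* to 16064 bp in *Vwf*. On this scale, CPM (counts per 1000000 of a library's counts, scaled by TMM factors) per kilobase, the order of the medians over 14 libraries was *Cdh5* at 16.5, *Pecam1* at 14.6, *Eng* at 13.6, *Tek* at 4.37, *Emcn* at 3.55, *Tie1* at 2.85, *Kdr* at 2.63, *Vwf* at 1.66, *Icam1* at 0.617 and *Vcam1* at 0.600. Each gene's range over the libraries overlapped that of the next gene in this order, so neighbours were not separated beyond their spread. This order of pooled medians was not that of every group. *Eng*, at a mean of 14.6 ± 1.79 (SD, n = 3) on this scale in db/+, stood above *Pecam1* at 10.9 ± 3.26, and *Kdr* had the highest mean in Con+Veh, on the counts described below. Both leukocyte receptors had the lowest means in all 4 groups. *Vcam1* rested on 58 to 690 counts per library and *Icam1* on 62 to 191, while *Cdh5* had 1086 to 5121. *Pecam1* is also carried by leukocytes and platelets, *Vwf* by platelets, and *Vcam1* and *Icam1* by many stromal cells, so these 4 are less specific to vessels than *Cdh5*, *Tie1* or *Emcn*.

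**Figure D1:**
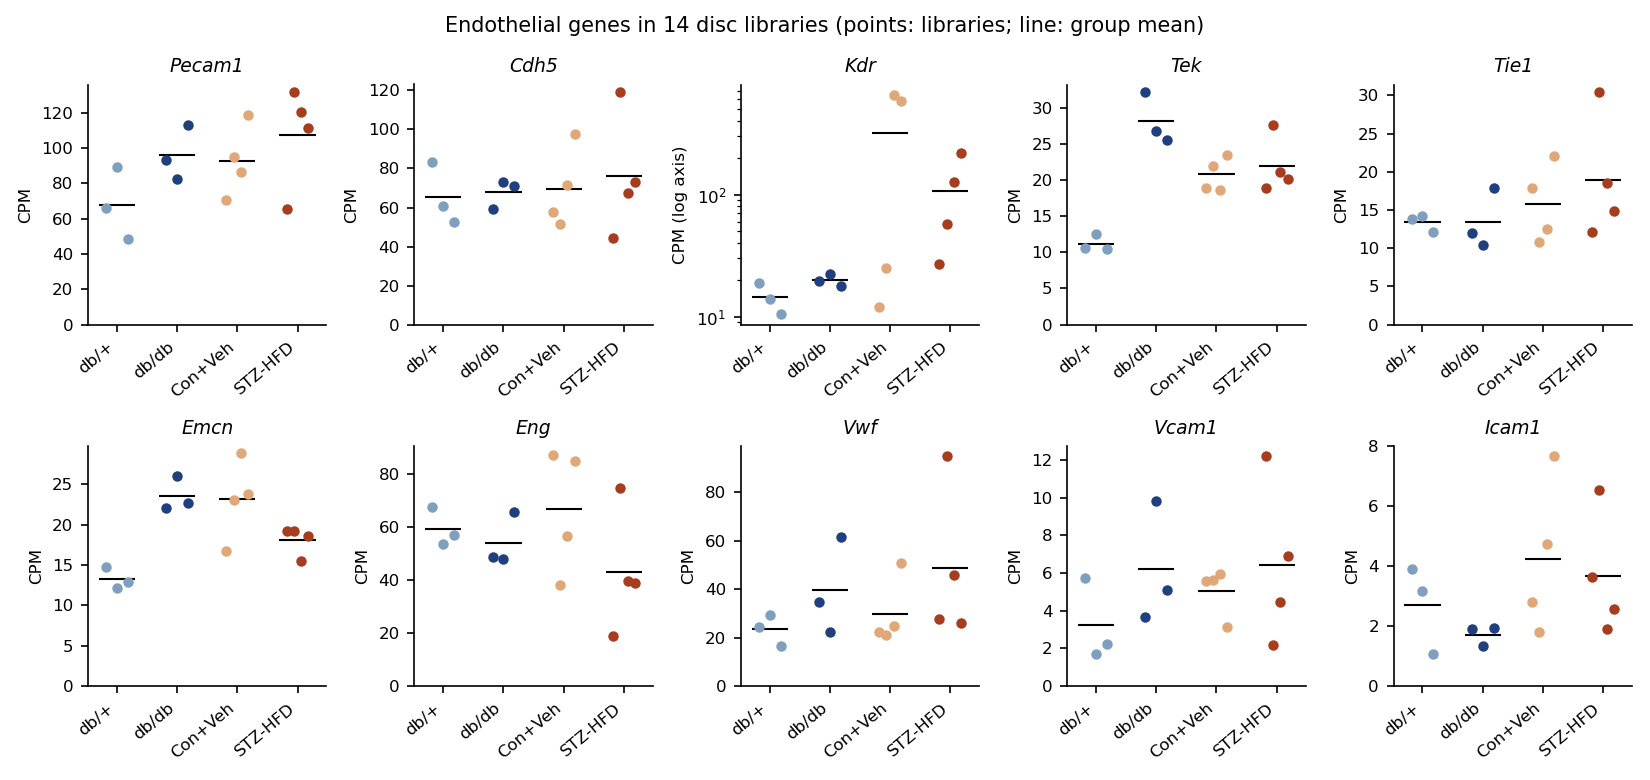
Each panel plots 1 gene, with TMM-scaled CPM on the vertical axis (a log axis for *Kdr* alone) and the 4 groups on the horizontal axis. Points are libraries and lines are group means. The db/db points of *Tek* and *Emcn* lie above all db/+ points, and the *Kdr* points of Con+Veh run from 12.0 to 646 CPM.

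Of the receptor pair of the angiopoietin pathway, *Tek* rose in db/db and *Tie1* did not pass the test. *Tek* (ENSMUSG00000006386, GRCm38 chr4:94739289-94874976, plus strand) measured 10.5, 12.5 and 10.5 CPM in the db/+ libraries and 32.1, 26.7 and 25.5 CPM in the db/db libraries. All db/db values were more than 2 times all db/+ values, and the groups did not overlap. The log2 fold change was 1.31 ± 0.20 (SE, n = 3 per group), a 2.49-fold difference, with an adjusted p of 0.0115 (limma). *Tek* values were 18.9, 22.0, 18.7 and 23.5 CPM in Con+Veh and 18.9, 27.5, 21.1 and 20.1 CPM in STZ-HFD. These groups overlapped throughout, and the log2 fold change was 0.07 ± 0.18 (n = 4 per group, adjusted p = 0.868). The difference of the 2 contrasts for *Tek* was 1.24 ± 0.26 on the log2 scale (adjusted p = 0.0300). Both models came from separate cohorts that differed in age and history, so the 2 control groups are not directly comparable.

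The *Tek* difference in db/db kept its direction in all 29 alternative analyses, with log2 fold changes from 1.17 to 1.57, and it was called in 27 of them. Leaving out any 1 of the 14 libraries kept the call, with adjusted p values from 0.00640 to 0.0466. Con+Veh and STZ-HFD libraries enter this comparison only through the filter, scaling and shared spread, so leaving them out tests the call little. The call was lost with edgeR's quasi-likelihood test (log2 fold change 1.33, adjusted p = 0.116) and with the adipocyte marker score as a covariate (1.52, adjusted p = 0.183). The difference of the contrasts was called in 11 of 28 alternatives for *Tek* and in 18 of 29 for *Emcn*, all in the same direction.

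*Tie1*, the second receptor of the pair, did not separate the groups in either model. It measured 13.8, 14.2 and 12.2 CPM in db/+ and 12.0, 10.5 and 17.9 CPM in db/db. The log2 fold change was -0.04 ± 0.29 (adjusted p = 0.955). In STZ-HFD, *Tie1* ranged from 12.1 to 30.4 CPM, against 10.9 to 22.0 CPM in Con+Veh (0.25 ± 0.27, adjusted p = 0.673). Whether *Tek* and *Tie1* differed from each other in their response was not tested.

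*Angpt1*, the activating ligand of TEK, rose in db/db as well. It measured 5.02, 4.08 and 5.81 CPM in db/+ and 13.4, 15.6 and 9.97 CPM in db/db, again without overlap. The log2 fold change was 1.40 ± 0.24 (adjusted p = 0.0127), and it was not called when db/+ replicate 2 was left out (1.23, adjusted p = 0.0637). In the other cohort *Angpt1* was 9.89 to 13.2 CPM in Con+Veh and 9.40 to 12.2 CPM in STZ-HFD, and the difference of the contrasts was called (1.54 ± 0.32, adjusted p = 0.0279). *Angpt2* was 4.53 to 6.12 CPM in db/+ and 6.88 to 7.75 CPM in db/db, without overlap and not called (0.52 ± 0.22, adjusted p = 0.186). *Ptprb*, the phosphatase that opposes TEK in vessels, had a log2 fold change of 0.65 ± 0.27 in db/db (adjusted p = 0.183), also without overlap. Libraries did not overlap between db/db and db/+ for 25.8% of all genes tested, and between STZ-HFD and Con+Veh for 4.74%.

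**Figure D2:**
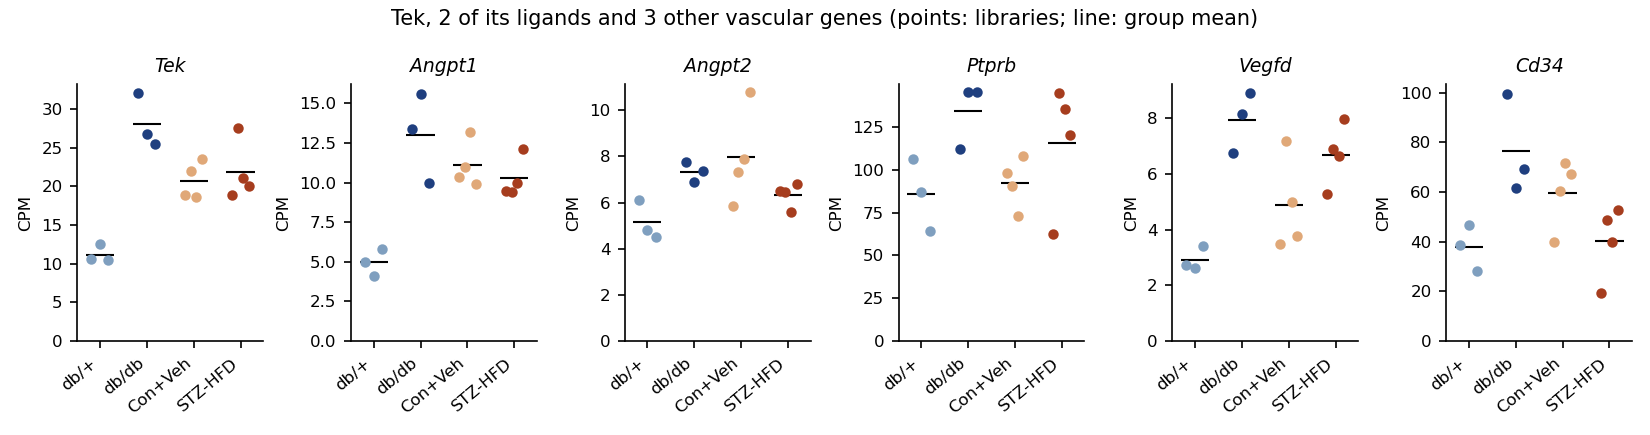
TMM-scaled CPM of *Tek* (vertical axes), its ligands *Angpt1* and *Angpt2*, and *Ptprb*, *Vegfd* and *Cd34*, in the 4 groups on the horizontal axes. Points are libraries and lines are group means. In all 6 panels each db/db point lies above each db/+ point, while the points of Con+Veh and STZ-HFD overlap.

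*Emcn*, which encodes the sialomucin endomucin of capillary and venous endothelium, had differences of opposite sign in the 2 models. It measured 14.8, 12.2 and 12.9 CPM in db/+ and 22.1, 26.1 and 22.6 CPM in db/db. The groups did not overlap, and the log2 fold change of 0.84 ± 0.20 had an adjusted p of 0.0376 but stayed under the minimum of 1. An adjusted p below 0.05 was found for 1.93% of all genes in that comparison. In Con+Veh, *Emcn* was 16.7, 23.1, 28.9 and 23.8 CPM, and in STZ-HFD 19.2, 19.2, 15.6 and 18.6 CPM. In STZ-HFD 1 value lay below the Con+Veh range and the other 3 in its lower part, with a log2 fold change of -0.56 ± 0.18 (adjusted p = 0.0934). The difference of the contrasts was 1.40 ± 0.27 (adjusted p = 0.0204). In db/db the adjusted p of *Emcn* rose above 0.05 when any 1 of the 6 db libraries was left out, with a range from 0.0577 to 0.139, and the log2 fold change then was 0.76 to 0.94.

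Base composition moved with these values. Over 16899 genes, Spearman's rho between the db/db log2 fold change and the G+C share of the exons was -0.43, and in STZ-HFD it was -0.08 (genes are not independent replicates). Exons of *Emcn* and *Vcam1* were 42.2% and 42.1% G+C, *Tek* 47.2%, and *Eng* and *Tie1* 57.6% and 57.8%. After the G+C trend was removed from the db/db contrast, *Tek* kept its call at 1.17 (adjusted p = 0.0204). *Emcn* fell to 0.47 (adjusted p = 0.287) and *Vcam1* to 0.74 (adjusted p = 0.403). The difference of the contrasts then missed the threshold for both, with adjusted p values of 0.0515 for *Tek* and 0.0550 for *Emcn*.

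**Figure D3:**
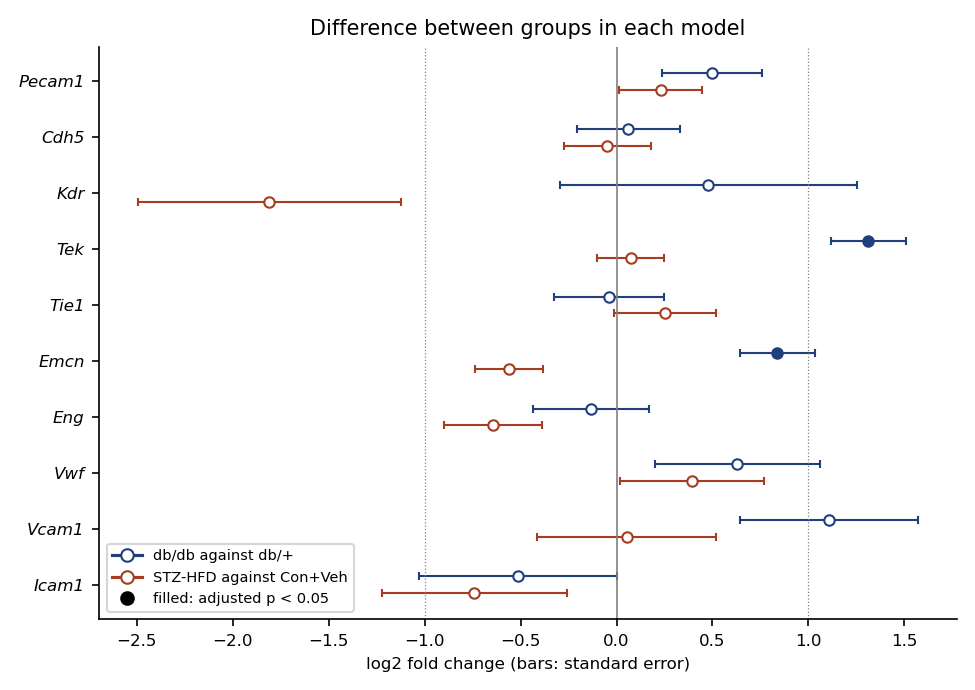
Log2 fold change on the horizontal axis, with standard errors as bars, for the 10 genes in db/db against db/+ and in STZ-HFD against Con+Veh. Filled points had an adjusted p under 0.05, and dotted lines mark the minimum of 1 in each direction. Only *Tek* and *Emcn* in db/db are filled, and *Kdr* in STZ-HFD, at -1.81, lies farthest from 0.

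*Kdr*, the main signalling receptor for VEGF-A, had gene counts that 4 libraries set apart. It measured 18.9, 14.1 and 10.6 CPM in db/+ and 19.7, 22.3 and 17.8 CPM in db/db (log2 fold change 0.48 ± 0.77, adjusted p = 0.765). In Con+Veh it measured 12.0, 25.2, 646 and 578 CPM, and in STZ-HFD 27.2, 57.6, 128 and 218 CPM. Replicates of Con+Veh thus spanned 53.8-fold, more than any other of the 10 genes in any group. The fitted log2 fold change in STZ-HFD was -1.81 ± 0.68 (adjusted p = 0.163).

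The deposited transcript estimates did not share this pattern. Summed over the *Kdr* transcripts, they were 182, 259, 153 and 190 counts in Con+Veh and 100, 282, 276 and 246 in STZ-HFD, while the gene counts were 444, 1221, 13818 and 10707 and then 665, 1683, 4129 and 7360. The gene count was thus 90.3 and 56.4 times the transcript sum in Con+Veh replicates 3 and 4, 15.0 and 29.9 times in STZ-HFD replicates 3 and 4, and 2.44 to 6.65 times in the other 10 libraries. The same ratio was 2.70 to 2.98 in all 14 libraries for *Cdh5*, 2.60 to 4.27 for *Tie1* and 2.70 to 4.20 for *Vwf*. For *Emcn* it was 5.40 in STZ-HFD replicate 1 and 2.38 to 2.94 in the other libraries. *Icam1* varied more, at 0.824 to 1.78 in db/+ and db/db and 2.24 to 4.45 in Con+Veh and STZ-HFD. No other annotated gene overlapped *Kdr* (ENSMUSG00000062960, GRCm38 chr5:75932827-75978458, minus strand).

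With gene totals from the transcript table, the *Kdr* log2 fold change in STZ-HFD was 0.08 (adjusted p = 0.943), and without Con+Veh replicates 3 and 4 it was 2.73 (adjusted p = 0.967), a choice made after the values were seen. *Kdr* was called lower without Con+Veh replicate 1 (-2.10, adjusted p = 0.0393), without replicate 2 (-2.09, adjusted p = 0.0417), and without both libraries whose names end in RIP (-2.75, adjusted p = 0.0384), which are Con+Veh replicate 2 and STZ-HFD replicate 4. Con+Veh replicates 3 and 4 carried the highest quality weights, 3.05 and 1.81, where the other 12 libraries had 0.275 to 1.53. *Bmpr2*, a receptor of the BMP family, had the same feature, with gene counts 339 and 619 times the transcript sum in Con+Veh replicates 3 and 4, and so did *Hlcs* (179 and 114 times), chosen after its values were seen. The cause of these counts was not tested, and no direction for *Kdr* or *Bmpr2* in STZ-HFD is drawn from them.

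**Figure D4:**
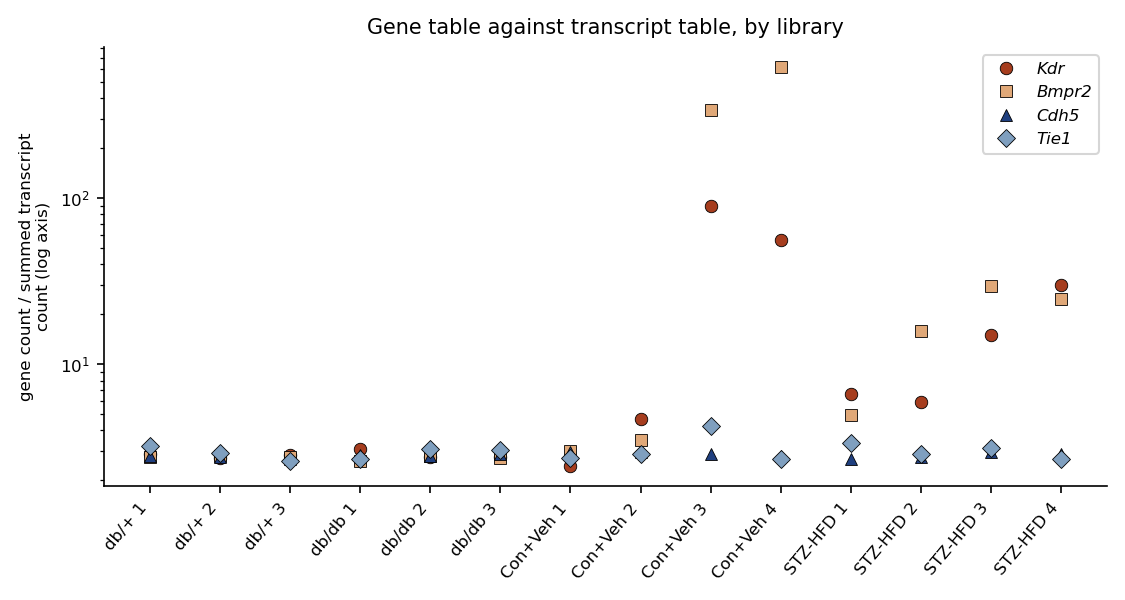
Ratio of the gene count to the summed transcript count (vertical log axis) in each of the 14 libraries (horizontal axis) for *Kdr*, *Bmpr2*, *Cdh5* and *Tie1*. *Cdh5* stays between 2.70 and 2.98, while *Kdr* reaches 90.3 and *Bmpr2* 619 in the Con+Veh group.

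The genes of junctions, of the vessel surface and of clotting were not called in either model. *Pecam1* was 65.9, 89.0 and 48.5 CPM in db/+ and 93.3, 82.5 and 113 CPM in db/db, where db/db replicate 2 fell below the highest db/+ value (0.50 ± 0.26, adjusted p = 0.282). In the other cohort it was 70.8 to 119 CPM in Con+Veh and 65.6 to 132 CPM in STZ-HFD (0.23 ± 0.22, adjusted p = 0.629). *Cdh5*, largely restricted to endothelium, gave group means of 65.5 ± 15.8 (SD, n = 3) in db/+, 67.8 ± 7.57 (n = 3) in db/db, 69.5 ± 20.4 (n = 4) in Con+Veh and 76.1 ± 31.4 CPM (n = 4) in STZ-HFD. Its log2 fold changes were 0.06 ± 0.27 and -0.05 ± 0.23, and their signs turned in 5 of 30 and 11 of 30 alternatives.

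*Eng*, the TGF-beta co-receptor endoglin, was 67.3, 53.3 and 56.8 CPM in db/+ and 48.5, 48.0 and 65.5 CPM in db/db (-0.13 ± 0.30, adjusted p = 0.837). It was 87.0, 38.2, 56.7 and 84.6 CPM in Con+Veh and 19.0, 74.7, 39.4 and 38.9 CPM in STZ-HFD. The lowest value belonged to STZ-HFD replicate 1, the shallowest library, which had the largest TMM factor of its group (1.52). The groups overlapped (-0.64 ± 0.26, adjusted p = 0.186). *Vwf* was 24.4, 29.2 and 16.6 CPM in db/+ and 34.6, 22.1 and 61.5 CPM in db/db (0.63 ± 0.43, adjusted p = 0.415). *Vwf* in STZ-HFD ranged from 26.0 to 95.1 CPM around a median of 36.6, against 21.1 to 50.9 around 23.6 in Con+Veh (0.39 ± 0.37, adjusted p = 0.638). A single library, replicate 2, held the STZ-HFD maximum of *Vwf*, and the same library was the highest of its group for 7 of the 10 genes.

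The leukocyte receptors differed widely between replicates. *Vcam1* was 5.71, 1.70 and 2.26 CPM in db/+ and 3.66, 9.85 and 5.08 CPM in db/db. Its log2 fold change of 1.11 ± 0.47 was past the minimum, but the groups overlapped and the adjusted p was 0.185. In Con+Veh it was 5.57, 5.62, 5.94 and 3.13 CPM and in STZ-HFD 12.2, 2.19, 4.45 and 6.92 CPM (0.05 ± 0.47, adjusted p = 0.971). The spread within STZ-HFD was 5.59-fold. *Icam1* was 3.90, 3.17 and 1.08 CPM in db/+ and 1.89, 1.33 and 1.92 CPM in db/db (-0.51 ± 0.52, adjusted p = 0.603). In Con+Veh *Icam1* was 2.81, 1.80, 4.72 and 7.67 CPM and in STZ-HFD 3.64, 6.53, 1.92 and 2.57 CPM (-0.74 ± 0.48, adjusted p = 0.453). Neither receptor was called in either model.

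Of the 10 genes, 2 did not overlap between db/db and db/+, both higher, where 14.1% of all genes tested were higher without overlap. None was free of overlap in the STZ-HFD comparison, where 4.74% of all genes tested were. Summed without *Kdr*, the other 9 genes made up 213 to 289 CPM in db/+, 300.2 to 384 CPM in db/db, 269 to 432 CPM in Con+Veh and 223 to 507 CPM in STZ-HFD. The db/db sums lay above the db/+ sums, and the STZ-HFD sums contained the whole Con+Veh range. Both ends of the STZ-HFD range were single libraries, replicate 1 at the low end and replicate 2 at the high end. Replicate 1 had a TMM factor of 1.52, against 0.696 to 0.745 in the other STZ-HFD libraries, and CPM values are divided by this factor.

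The transcript table held the main protein-coding transcript of *Cdh5*, *Kdr*, *Tie1* and *Icam1*, which took a mean of 97.9% to 99.3%, 81.9% to 89.2%, 91.7% to 98.9% and 82.6% to 94.5% of each gene's estimated counts in the 4 groups. *Emcn* was divided between a pair of protein-coding transcripts, at 35.9% to 45.7% and 34.5% to 43.9%, and a transcript that retains an intron, at 13.9% to 29.6%. These *Emcn* shares had SDs of 1.72 to 15.2 percentage points within groups. *Vwf* was divided as well, with the main protein-coding transcript at a mean of 28.1% to 36.8%, a processed transcript at 29.9% to 34.7% and a transcript subject to nonsense-mediated decay at 27.8% to 36.2%. For *Tek*, *Vcam1*, *Eng* and *Pecam1*, 1 annotated transcript each was not among those used here, so shares of these 4 genes are not given.

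Other genes of the same pathways were taken as 7 lists of 82 genes, of which 78 were tested. In the list of endothelial identity, 2 of 23 tested genes were called higher in db/db, beside 1.66% of all genes called, with a median log2 fold change of 0.38 over the list. In STZ-HFD 1 was called higher, beside 2.61%, with a median of 0.14. At an unadjusted p under 0.05 (limma), 6 of the 23 were higher and 0 lower in db/db, beside 21.1% of all genes in either direction. In STZ-HFD 7 were higher and 2 lower, beside 17.9%. The genes called in db/db were the fatty acid carriers *Cd36* and *Fabp4*, which adipocytes, macrophages and capillary endothelium share. *Cd36* measured 11.3, 9.50 and 6.68 CPM in db/+ and 44.9, 41.8 and 34.8 CPM in db/db, without overlap (2.16 ± 0.31, adjusted p = 0.00784). *Fabp4* measured 48.4, 26.5 and 32.1 CPM in db/+ and 93.9, 106 and 67.5 CPM in db/db (1.36 ± 0.27, adjusted p = 0.0237), but it was not called without db/+ replicate 2, db/+ replicate 3, db/db replicate 1 or db/db replicate 2, with adjusted p values from 0.0579 to 0.0987. *Cd36* also rose in STZ-HFD, where the groups overlapped (1.12 ± 0.26, adjusted p = 0.0244). *Cd34*, a sialomucin of capillary endothelium and of progenitor cells, had log2 fold changes of 0.98 ± 0.28 in db/db (adjusted p = 0.0692) and -0.65 ± 0.23 in STZ-HFD (adjusted p = 0.137), and the difference was called (1.63 ± 0.36, adjusted p = 0.0326).

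Adipocyte markers also differed between groups, and whether they followed these genes was not tested. Of 8 adipocyte markers 3 were called higher in db/db, namely *Adipoq*, *Plin1* and *Pck1*, beside 1.66% of all genes called. The median log2 fold change of the list was 1.45. The log2 fold change was positive for 7 of the 8 in db/db. The summed level of the 8 was 229 to 424 CPM in db/+ and 315 to 528 CPM in db/db, and 348 to 825 CPM in Con+Veh and 737 to 840 CPM in STZ-HFD. *Cfd*, named after its values were seen, was a large part of these sums. It was 110 to 288 CPM in db/+, 91.9 to 189 CPM in db/db, 197 to 545 CPM in Con+Veh and 430 to 602 CPM in STZ-HFD. With the adipocyte score as a covariate *Cd36* was 1.67 (adjusted p = 0.252), *Fabp4* 0.67 (adjusted p = 0.494), *Angpt1* 1.02 (adjusted p = 0.347) and *Vcam1* 0.01 (adjusted p = 0.997) in db/db, and 0 of all genes tested were called in that fit, with 1779 at an unadjusted p under 0.05.

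Skeletal muscle markers also differed, with 2 of 10 called lower in db/db and 6 of 10 called higher in STZ-HFD. Over all genes 1.66% and 2.61% were called in either direction. The summed level of the muscle markers was 4511 to 8712 CPM in db/+ and 2939 to 5003 CPM in db/db. It was 8224 to 10548 CPM in Con+Veh and 9451 to 23497 CPM in STZ-HFD. With the muscle score as a covariate *Tek* was 1.57 (adjusted p = 0.00814) in db/db, and the median of the 10 genes in STZ-HFD was -0.44. Macrophage markers summed to 143 to 209 CPM in db/+, 141 to 218 CPM in db/db, 135 to 300.0 CPM in Con+Veh and 96.8 to 199 CPM in STZ-HFD, and 3 of 10 were called lower in STZ-HFD. Of 10 cartilage and annulus markers, 8 were called lower in STZ-HFD and 0 in db/db. Over all genes 1.31% were called lower in STZ-HFD. Mural cells, the pericytes and smooth muscle that wrap vessels, had 0 of 11 markers called in either model, with 3 at an unadjusted p below 0.05 in db/db and 1 in STZ-HFD, beside the 21.1% and 17.9% of all genes. Platelet markers, of which 3 of 8 stayed under 1 CPM in every library, summed to 8.47 to 33.9 CPM over all libraries. Of the 3 that were tested none was called in db/db. *Pf4*, a platelet chemokine named after its values were seen, was called lower in STZ-HFD. It was at 6.64 to 13.1 CPM there, against 12.1 to 29.3 CPM in Con+Veh (-1.56 ± 0.41, adjusted p = 0.0432). The other 2 had positive log2 fold changes in STZ-HFD, and the median of the 3 was 0.06. *Gp1ba*, also named after its values were seen, was higher in STZ-HFD without overlap and not called. The tested platelet markers thus did not move in the same direction. Of 8 bone markers 0 were called in db/db and 3 were called lower in STZ-HFD, beside the same 1.31% of all genes. The summed level of the 8 was 226 to 528 CPM in STZ-HFD and 632 to 1426 CPM in Con+Veh. The part of these other tissues in the endothelial values was not tested. The covariate fits cannot decide it, since a marker score that differs between small groups cannot be separated from the group itself.

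Among VEGF ligands and receptors, 1 of 9 genes rose in db/db, beside 1.66% of all genes called. In STZ-HFD 0 were called, with 2 of 9 at an unadjusted p under 0.05, beside 17.9% of all genes. *Vegfd*, a ligand known mainly for lymphatic growth, measured 2.73, 2.61 and 3.40 CPM in db/+ and 6.75, 8.15 and 8.89 CPM in db/db (1.45 ± 0.25, adjusted p = 0.0127). It was not called without db/+ replicate 2 (1.35, adjusted p = 0.0637). *Vegfa*, the ligand of KDR, was lower without overlap in db/db and not called (-0.79 ± 0.27, adjusted p = 0.115). *Vegfb* had the largest difference of this list in STZ-HFD (0.83 ± 0.25, adjusted p = 0.0767). Of the 10 angiopoietin and TGF-beta partners, *Angpt1* was the only gene called in db/db and *Bmpr2* the only one in STZ-HFD. Over all genes 1.66% and 2.61% were called. *Bmpr2* was at -3.47 ± 0.80 (adjusted p = 0.0267) on the gene counts described above and 0.09 with transcript totals.

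Notch genes of endothelium had 0 of 9 calls in both models, with 1 of 9 in db/db and 0 of 9 in STZ-HFD at an unadjusted p under 0.05, again beside 21.1% and 17.9%. *Notch4* had the largest differences, 0.83 ± 0.30 (adjusted p = 0.130) and 0.60 ± 0.29 (adjusted p = 0.293). Of 11 artery, vein and lymphatic markers, 0 were called in db/db, where 4 had an unadjusted p under 0.05, all higher, beside 21.1% of all genes in either direction. In STZ-HFD 1 of the 11 was called higher and 1 lower, beside 2.61% of all genes called. At an unadjusted p under 0.05 (limma) 3 were higher and 2 lower there, beside 17.9% of all genes. In STZ-HFD the lymphatic regulator *Prox1*, which cardiac and skeletal muscle also express, rose without overlap, from 6.40 to 13.5 CPM in Con+Veh to 14.3 to 23.4 CPM in STZ-HFD (1.30 ± 0.24, adjusted p = 0.0102). *Lyve1*, a hyaluronan receptor of lymphatic endothelium and some macrophages, fell without overlap, from 28.7 to 53.6 CPM to 11.2 to 23.5 CPM (-1.40 ± 0.36, adjusted p = 0.0406). Both genes mark lymphatic vessels in other tissues, and here they moved in opposite directions. The difference of the contrasts was called for *Lyve1* (2.34 ± 0.54, adjusted p = 0.0390). *Mmrn1* had the largest differences of this list, 1.93 ± 0.76 (adjusted p = 0.160) in db/db and -1.91 ± 0.85 (adjusted p = 0.246) in STZ-HFD, at levels of 0.278 to 3.16 CPM.

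Selectins and the leukocyte ligands of VCAM1 and ICAM1 had 0 of 9 calls in both models, with 3 of 9 at an unadjusted p under 0.05 in each, all higher in db/db and all lower in STZ-HFD, beside the same 21.1% and 17.9% of all genes. The largest differences were those of the integrin *Itgb1* in db/db (0.96 ± 0.30, adjusted p = 0.0903) and of the P-selectin ligand *Selplg* in STZ-HFD (-2.30 ± 0.68, adjusted p = 0.0719). Inhibitors of vessel growth that avascular tissue makes had 0 of 8 calls in db/db, with 1 at an unadjusted p under 0.05, and *Tnmd* had the largest value (1.44 ± 0.49, adjusted p = 0.116). In STZ-HFD 3 of the 8 fell, with a median of -1.02 over the list, beside 1.31% of all genes called lower. *Thbs1*, thrombospondin-1, was 312, 185, 534 and 765 CPM in Con+Veh and 106, 240, 130 and 130 CPM in STZ-HFD, with overlap through 1 library of each group (-1.95 ± 0.31, adjusted p = 0.00453). *Thbs2* (-1.46 ± 0.31, adjusted p = 0.0193) and the matrix protein gene *Sparc* (-1.03 ± 0.27, adjusted p = 0.0412) were the others. All 3 are also abundant products of annulus and other connective tissue cells, and most cartilage and annulus markers were called lower in STZ-HFD too. A link between these changes was not tested, and no score of those markers was among the covariates.

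The number of calls in STZ-HFD changed with the libraries that entered the fit. Leaving out Con+Veh replicate 3, Con+Veh replicate 4 or STZ-HFD replicate 3 left 0 of the 7 companion calls, and leaving out Con+Veh replicate 2 gave 11. Over all genes the calls went from 441 to 17 or 18 in the same 3 fits. The signs were kept and the log2 fold changes were then -1.89 to -1.58 for *Thbs1*, -1.38 to -1.31 for *Thbs2*, -0.97 to -0.82 for *Sparc*, -1.48 to -1.04 for *Lyve1*, 0.88 to 1.26 for *Prox1* and 0.87 to 1.15 for *Cd36*. In STZ-HFD, 0 of the 78 genes were called by edgeR's quasi-likelihood test and 4 by DESeq2. In db/db the 4 companion calls became 1 without db/+ replicate 2, and 0 with edgeR's quasi-likelihood test.

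The genes whose library-to-library pattern was most like the mean of the 10, after each group's own mean was taken out, were *Nfkbib* (Pearson's r = 0.95), *Calr* (0.93), *Ccn2* (0.92), *Rplp1* (0.92), *Sec63* (0.91), *Hpcal1* (0.91), *Dkk3* (0.91) and *Angptl2* (0.90), over 14 libraries. None of the 8 was in the vascular lists. Among the 10 genes themselves *Cdh5* was nearest to their mean at 0.95, and *Vcam1* ran against it at -0.50. Each of the 10, *Kdr* included, is part of that mean, which raises its own value, so these are not comparable with the values of the 8. The points share each library's depth, scaling and composition, and the values are a description.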

How the data were processed

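RNA from pooled discs of 14 mice was amplified with the SeqPlex kit and sequenced. Per the study's methods, the authors aligned reads with STAR (version printed as 2.7.9a1) to Ensembl release 101 (GRCm38). They deposited raw gene counts from featureCounts (2.0.32) and, from Salmon (1.5.23), estimated counts of transcripts. The strand setting is not given in the sources used here. The gene table's 55774 lines included 287 repeats, used once. Positions and lengths came from GENCODE M21, which held 55227 of the 55487 genes.

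Genes above a CPM of 1 in 3 or more libraries entered the tests. TMM-scaled counts were fitted with limma 3.58.1 (voomWithQualityWeights, edgeR 4.0.16, R 4.3.3) with 4 group means, after the study's own methods. Adjusted p values are Benjamini-Hochberg values over 16915 genes, from two-sided tests. Fold changes are fitted values, and group levels are CPM. Replicates are separate mice. Estimated counts, rounded after summing per gene, entered 1 alternative. Further settings tried were DESeq2 1.42.0, edgeR's quasi-likelihood test, other filters and scalings, covariates, a replicate block and leaving out libraries. The scripts were tested on simulated data.

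Depth was 16076908 to 58943169 counts per library, so 3 counts equal 0.0509 to 0.187 CPM (counting error only). The 10 genes, the lists and the markers were chosen with earlier results of these data known. Genes named beyond the 10 were every list gene called, the list gene with the largest difference per list and model, the 8 most alike, and those said to be chosen after their values were seen, to which *Angpt2*, *Ptprb*, *Vegfa* and the 3 adipocyte genes also belong.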

Additional observations from a re-analysis of the deposited data

Results flagged for a closer look

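The difference between both contrasts was past the threshold for *Tek* (1.24 on the log2 scale), *Emcn* (1.40), *Cd34* (1.63), *Angpt1* (1.54) and *Lyve1* (2.34), each tested as an interaction in limma. In all 5 the change in db/db was more positive than that in STZ-HFD. None of these differences was past the threshold without Con+Veh replicates 3 and 4, where 0 of all genes were called and 1171 had an unadjusted p under 0.05.

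Among the 20 sets of 4 libraries (10 genes in Con+Veh and in STZ-HFD), 3 held a library far from the others by Dixon's ratio, where chance gives about 1 in 20. *Vwf* in Con+Veh replicate 4 was 50.9 CPM, above the other 3. *Vcam1* in the same library was 3.13 CPM, below the others. *Emcn* in STZ-HFD replicate 3 was 15.6 CPM, below the others.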

How the results depend on the processing

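The *Tek* call in db/db held in 27 of 29 alternatives, and the difference between contrasts kept its sign for *Tek* and *Emcn* in all that were run. Calls among the 10 genes changed as follows, and causes were not tested. In db/db (1 call) there were 0 calls with edgeR's quasi-likelihood test, with the adipocyte score and with transcript totals, which left out *Tek*, *Vcam1*, *Eng* and *Pecam1*, and 2 without a minimum on the fold change. In STZ-HFD (0 calls) there was 1 without the libraries whose names end in RIP. In the difference (2 calls) there were 0 with edgeR, without quality weights, with the replicate block, the G+C trend removed, the muscle or the macrophage score, without the RIP libraries, or without Con+Veh replicates 3 and 4, and 1 with filterByExpr or transcript totals. Leaving out single libraries gave 1 to 1, 0 to 1 and 0 to 2 calls.

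Companion calls in db/db (4) became 0 with edgeR, without quality weights or with the adipocyte score, 2 with transcript totals, 7 with the muscle score and 13 with the replicate block. In STZ-HFD (7) they became 0 with edgeR, without quality weights, with the block, the adipocyte or macrophage score or without Con+Veh replicates 3 and 4, 1 with no filter or transcript totals, 2 with filterByExpr or without the RIP libraries, and 4 with DESeq2, the muscle score or each model fitted alone. In the difference (3) they became 0 with edgeR, without quality weights, with the block, transcript totals, the G+C trend removed, the macrophage score or without Con+Veh replicates 3 and 4, and 1 with filterByExpr, no filter or without the RIP libraries. Single libraries left out gave 1 to 4, 0 to 11 and 0 to 6.

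The median of the 10 genes ranged from 0.30 to 0.64 in db/db and from -0.14 to 0.06 in STZ-HFD when single libraries were left out, and it was -0.44 in STZ-HFD with the muscle score.

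Signs turned mainly for values near 0. In db/db, *Cdh5* was -0.13 with the replicate block, -0.0061 with the adipocyte and -0.032 with the macrophage score, and -0.13 to 0.38 over all alternatives (single libraries left out, -0.073 to 0.28). *Kdr* was -1.96 with the adipocyte score. *Tie1* was 0.0067 with edgeR, 0.027 with DESeq2, 0.016 with no filter, 0.25 with the G+C trend removed, 0.12 with the muscle and 0.44 with the adipocyte score (-0.27 to 0.12). *Eng* was 0.16 with the G+C trend removed, 0.013 with the muscle and 0.15 with the adipocyte score, *Icam1* 0.55 with the muscle score, and *Notch4* -1.27 with transcript totals. In STZ-HFD, the muscle score gave -0.48 for *Pecam1*, -0.25 for *Tek*, -0.15 for *Tie1* and -0.56 for *Vwf*. *Cdh5* was 0.13 with edgeR, 0.15 with DESeq2, 0.073 without quality weights, 0.14 with no filter, 0.075 with transcript totals and 0.40 with the macrophage score. *Kdr* was 0.076 with transcript totals and 0.31 with the macrophage score. *Vcam1* was -0.10 with no filter, -0.055 with the G+C trend removed, -0.67 with the adipocyte and -0.091 with the macrophage score, and -0.14 without the RIP libraries. *Icam1* was 0.023 without quality weights and 0.51 with the macrophage score, and *Bmpr2* 0.091 with transcript totals. Without Con+Veh replicates 3 and 4, chosen after seeing the data, *Cdh5* was 0.43, *Kdr* 2.73, *Vcam1* -0.12, *Icam1* 0.32, *Bmpr2* 2.32 and *Sparc* 0.0065. With single libraries left out, the STZ-HFD values ran from -0.18 to 0.16 for *Cdh5*, -0.059 to 0.16 for *Tek*, -0.0098 to 0.49 for *Tie1* and -0.30 to 0.34 for *Vcam1*.

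Pairing by replicate number was not seen. Same-numbered libraries correlated at -0.28 to 0.19 in their deviations from group means, and not every library correlated best with its own number. With few libraries per group such deviations depend on each other, so this check cannot exclude pairing. The replicate block gave 796 higher and 688 lower calls over all genes in db/db and 2 and 4 in STZ-HFD, where *Tek* in db/db was 1.43. Over all genes, edgeR called 0 for db/db and 29 for STZ-HFD, beside 281 and 441.

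Precision was limited by 3 or 4 mice per group and, for *Vcam1* and *Icam1*, by low counts.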

Other observations

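The genes whose log2 CPM followed that of *Kdr* most closely over the 14 libraries were *Olfr123* (Pearson's r = 0.98), *Hlcs* (0.97), *Secisbp2* (0.96), *Bmpr2* (0.96), *Cramp1l* (0.96), *Actr2* (0.96), *Itpka* (0.96) and *Tll2* (0.95). These correlations rest on the high values of few libraries and are a description, with no test.

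A gene count more than 5 times out of proportion to its transcript sum, relative to the gene's median over the libraries, was rare. Of 6064 genes with at least 20 estimated counts in every library, 4 to 19 were that far out in 13 libraries and 60 (0.989%) in STZ-HFD replicate 1, the shallowest.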
